A study of Mus musculus with 72 samples.

Results

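Splicing regulators of the SR, hnRNP, CLK, U2AF, RBFOX, CELF and MBNL families were followed in mouse liver and in the suprachiasmatic nucleus (SCN), the circadian pacemaker of the brain, on a control or a methionine- and choline-deficient (MCD) diet. The rule that sets the members reads gene symbols: every Srsf, Hnrnp, Clk1 to Clk4, Tra2, U2af, Rbfox, Celf or Mbnl symbol in a gene count table, without 2 symbols that end in -ps. This gave 51 genes of the 24091 listed in either table, of which 48 were in both. They comprised 20 hnRNP genes, 13 SR genes (the Srsf genes with Tra2a and Tra2b), 6 CELF, 4 CLK, 3 MBNL, 3 RBFOX and 2 U2AF genes. The liver table held 49 of them, without Celf6 and Rbfox1, and the SCN table held 50, without Mbnl3. A filter on low counts left 47 members for testing in liver and all 50 in the SCN. The 2 members that did not pass it in liver were Celf3 and Srsf12.

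SR proteins bind exons through RNA recognition motifs and recruit the spliceosome with a domain rich in arginine and serine, and the CLK kinases phosphorylate that domain. The hnRNP proteins coat nascent RNA and often oppose SR proteins, while U2AF marks the 3′ splice site and the RBFOX, CELF and MBNL proteins set tissue-specific exon choices, above all in brain and muscle. Many SR and hnRNP genes hold a "poison" exon, whose inclusion brings in an early stop codon and sends the transcript to nonsense-mediated decay, and the activity of CLK kinases is known to follow body temperature, which changes over the day.

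C57BL/6 mice of 8 to 12 weeks, housed singly, were fed either diet for 11 days, 10 of them under a light-dark cycle and the last in constant darkness, and were killed every 4 h from circadian time (CT) 0 to CT20, where CT0 is the start of the subjective day. By the sample labels 2 males and 1 female were taken per diet and time, which gave 3 libraries in each of 24 groups and 18 libraries per tissue on each diet. The protocol text speaks of males, and the labels do not tie a liver library to an SCN library of the same mouse. No genotype or drug differed between groups, and all mice, controls included, spent the last day in darkness. Liver came from the left lobe, and the SCN was cut by laser from stained brain sections, so that both samples are mixtures of cell types: fewer cells of a type and less RNA per cell cannot be told apart. Poly(A) RNA was sequenced with a stranded kit. The p-values measure the spread between these libraries.

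The sequences printed are those of 2 decay exons and 2 promoters, shown 5′ to 3′ on the gene's strand. The exons lie in Hnrnpl, whose protein binds CA-rich RNA, and in Tra2a, a splicing activator that binds GAA-rich exons. In the GENCODE M21 annotation (GRCm38) the Tra2a exon belongs to 1 transcript, marked for nonsense-mediated decay, and the Hnrnpl exon to 2, of which 1 is marked so and 1 as a retained-intron transcript, and neither is in a coding transcript. Each is printed from its first base to the stop codon, which is in capitals. In Hnrnpl it is exon 6 of 13 of transcript Hnrnpl-213, 70 bases at chr7:28817335-28817404 on the plus strand, and the stop codon TGA begins at base 57. In Tra2a it is exon 2 of 9 of transcript Tra2a-202, 306 bases at chr6:49252803-49253108 on the minus strand, and the stop codon TAG begins at base 142.
Hnrnpl decay exon: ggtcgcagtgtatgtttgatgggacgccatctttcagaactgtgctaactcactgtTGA
Tra2a decay exon: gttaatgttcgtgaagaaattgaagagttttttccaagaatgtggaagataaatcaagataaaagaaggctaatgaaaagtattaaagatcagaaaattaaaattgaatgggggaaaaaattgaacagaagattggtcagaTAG

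Promoters are shown for 2 members with a rhythm in liver on both diets, as the 250 bases before the start of the gene (RefSeq, GRCm38.p6): Tra2a at chr6:49264053-49264302 and Hnrnpd at chr5:99978939-99979188, both on the minus strand. Capitals mark a match to the cAMP response element (TGACGTCA) in Tra2a and to an E-box (CACGTG), the motif bound by CLOCK and BMAL1, in Hnrnpd. The core of a heat shock element (GAANNTTC) was searched as well. Each motif reads the same on both strands and none overlaps another here.
Tra2a promoter: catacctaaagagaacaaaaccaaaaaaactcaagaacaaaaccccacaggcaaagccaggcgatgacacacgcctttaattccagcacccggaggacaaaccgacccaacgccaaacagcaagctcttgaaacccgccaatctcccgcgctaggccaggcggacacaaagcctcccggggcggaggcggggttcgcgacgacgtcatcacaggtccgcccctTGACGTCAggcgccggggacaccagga
Hnrnpd promoter: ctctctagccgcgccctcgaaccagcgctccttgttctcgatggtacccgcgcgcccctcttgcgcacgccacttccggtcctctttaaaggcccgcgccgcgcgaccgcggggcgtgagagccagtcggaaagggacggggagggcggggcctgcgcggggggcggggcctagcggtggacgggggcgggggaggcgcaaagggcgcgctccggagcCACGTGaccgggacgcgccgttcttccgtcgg
Of the 45 members matched in the promoter table, 8 (17.8%) held GAANNTTC in this window, namely Celf2, Celf5, Hnrnpa2b1, Hnrnpf, Hnrnpl, Rbfox1, Srsf9 and Tra2b, against 7.73% of all 27025 genes in the table. CACGTG stood in 5 (11.1%; Clk2, Hnrnpa3, Hnrnpd, Hnrnpf and Mbnl1), against 6.86% of all genes. TGACGTCA stood in 4 (8.89%; Celf3, Celf6, Clk4 and Tra2a), against 1.77%. In Hnrnpl 218 bases of the window are an untranslated exon in M21, and it is not printed. Of the 8 members with a rhythm in liver on both diets, Hnrnpc, Hnrnpdl, Hnrnpk, Hnrnpr and Srsf1 are not on these lists. Clk2 and Hnrnpa3, which hold an E-box, were called in no test of rhythm. Whether a motif goes with a rhythm was not tested. A match is a run of letters and not a measured binding site.

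Library totals were 52.6 M to 86.7 M counts in liver and 23.3 M to 79.8 M counts in the SCN. Liver libraries fell into 2 kinds by the mitochondrial transcript mt-Nd6, 21 of low level (41.6 to 118.9 CPM, a count as a share of the scaled library total) and 15 of high level (414.1 to 924.6 CPM), with 8 control and 13 MCD libraries of the low kind and 10 and 5 of the high kind. Counts outside any exon bin took 3.87% to 4.62% in the low and 9.96% to 14.2% in the high kind. 1 control library of CT8 stood nearer to the MCD mean than to the mean of the other controls for 12 of the 19 members called for diet. Defining markers mostly matched the labelled tissues. Summed hepatocyte markers took 56172 to 120485 CPM in liver, and 4 of 6 were absent from the SCN table. Summed SCN neuron markers took 1630 to 4212 CPM in the SCN, and 5 of 7 were absent from the liver table. The other 2 summed to 7.31 to 473 CPM in control liver and 31.5 to 332 CPM in MCD liver. In liver the summed macrophage markers spanned 121 to 261 CPM on control and 156 to 279 CPM on MCD, with 4 of 4 tested called higher, and 3 of 6 hepatocyte and 3 of 4 erythrocyte markers were called lower, where 25.3% and 21.2% of all genes were called higher and lower. Their part in the results was not tested.

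On the control diet the CLK kinases stood higher in liver than in the SCN, and the neuronal CELF and RBFOX genes stood far lower. Across genes 43 of 48 members differed between the tissues, 19 higher and 24 lower in liver, by edgeR's quasi-likelihood test with Benjamini-Hochberg adjustment at 0.05, where 90.4% of all 14491 shared genes did (44.1% higher and 46.3% lower). Levels in this comparison are CPM scaled over both tissues by TMM, a trimmed mean that assumes most genes do not differ. Clk4 took 65.8 ± 6.52 CPM in liver (SD, n = 18) and 25.0 ± 4.69 in the SCN, a log2 difference of 1.47 ± 0.07 (SE). Clk1 took 96.1 ± 13.5 and 53.9 ± 9.91 CPM, Clk2 36.1 and 21.3, and Clk3 70.6 and 47.4, with log2 differences of 0.89, 0.77 and 0.53. All 4 kinases thus passed the test in the same direction, but with library totals in place of TMM, which moved the median of all genes to -0.75, Clk3 stood at -0.18, Clk2 at 0.07 without passing the test, and 8 members were higher and 37 lower in liver.

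Celf4, a neuronal regulator of mRNA and splicing, took 594 ± 43.3 CPM in the SCN and 1.12 ± 0.40 CPM in liver, a log2 difference of -9.22 ± 0.10. Rbfox3, the neuronal marker known as NeuN, took 27.5 CPM in the SCN and 1.01 CPM in liver, with a log2 difference of -4.89 ± 0.11. Over the 18 control livers Celf3 had 25 counts in all and was at 0 in 15 libraries, Celf5 had 53 counts and was at 0 in 11, and Srsf12 had 6 counts and was at 0 in 17. In the SCN these 3 genes took 127, 126 and 38.7 CPM. Hnrnpf, which binds runs of G, had the largest positive difference among the 48 members: 162 ± 8.87 CPM against 46.3 ± 3.46 in the SCN, a log2 difference of 1.81 ± 0.04. Srsf5, an SR protein of many exon enhancers, took 363 ± 70.9 CPM in liver and 146 ± 32.5 in the SCN (log2 difference 1.27 ± 0.07), and Mbnl1, a regulator of muscle and developmental exons, took 124 and 54.4 CPM (1.15 ± 0.07). In the other direction stood Hnrnpa1, a repressor of splice sites, with 70.6 CPM in liver and 181 in the SCN (-1.38 ± 0.05). Celf2, a binder of GU-rich RNA, took 18.3 and 52.1 CPM (-1.57 ± 0.08). Hnrnpa3 (-2.10), Hnrnph3 (-1.32) and Hnrnpd (-1.27) were lower in liver as well. Per kilobase of exon, Srsf5 was the highest of the 48 in liver (90.9 CPM per kilobase) and Hnrnpa2b1, a binder of UAG motifs, in the SCN (74.2), where Celf4 ranked 3 (69.2). On that scale the 4 CLK genes ranked between 27 and 35 of 48 in liver and between 40 and 46 in the SCN.

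**Figure D1:**
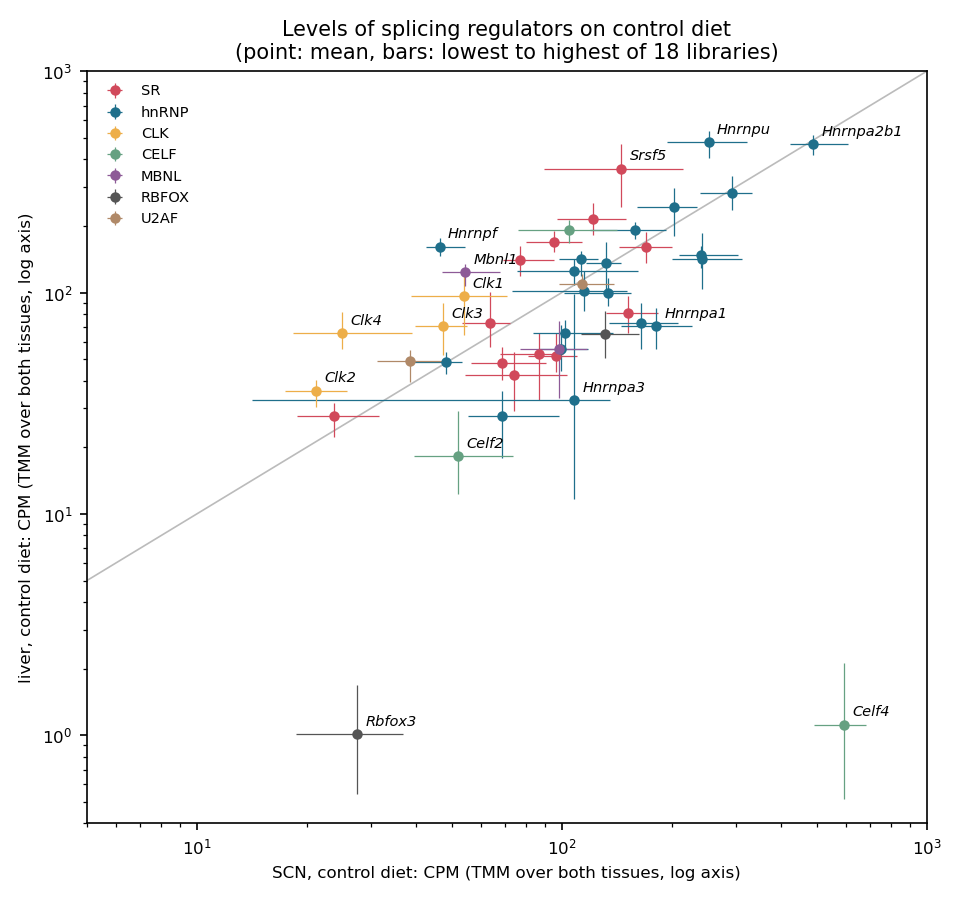
Control-diet level of each splicing regulator in liver (vertical, CPM, log axis) against the SCN (horizontal, CPM, log axis), with points for the mean and bars from the lowest to the highest of 18 libraries, colored by family and without genes under 0.5 CPM in liver. The 4 Clk genes, Srsf5 and Hnrnpf lie above the line of equal levels, and Celf4 and Rbfox3 lie far below it.

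The MCD diet changed 19 of the 47 members tested in liver, 9 higher and 10 lower, and the changes were small. The background was as high: 46.6% of all 20249 genes tested were called (25.3% higher and 21.2% lower), and the median log2 difference was -0.036 over the members and 0.017 over all genes. By family 10 of 20 hnRNP genes were called (4 higher, 6 lower), 4 of 12 SR genes (2 and 2), 2 of 3 MBNL genes (both higher), 1 of 4 CLK genes and 1 of 4 CELF genes (both lower), 1 of 2 U2AF genes (higher) and neither RBFOX gene tested. In each of the 47 members the libraries of both diets overlapped, as they did in all but 0.306% of the genes tested. The directions hold relative to the other genes: with library totals, which moved the median of all genes to 0.27, 36 members were called and all were higher, as 52.5% of all genes then were, with 7.61% lower. Within the low kind of library 9 of 46 members were called (28.2% of all genes) and within the high kind 6 of 46 (28.7%), and a model that also held the kind called 15 (44.1%).

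Among the CLK kinases only Clk3 passed the test for diet in liver. Its control libraries ranged from 31.5 to 54.2 CPM with a median of 41.9, and its MCD libraries from 28.3 to 46.8 with a median of 37.6. Both ranges overlapped, and the MCD mean was the lower one at 5 of 6 times. The log2 difference was -0.17 ± 0.04 (SE; adjusted p = 0.0015 in edgeR's quasi-likelihood test), and it was 0.08 with library totals. Clk1 ranged from 38.8 to 74.7 CPM around a median of 59.2 on control and from 42.1 to 63.4 around 53.6 on MCD, with a log2 difference of -0.09 ± 0.05 that did not pass (adjusted p = 0.193). Clk2 had medians of 21.7 and 21.3 CPM and a log2 difference of -0.04 (adjusted p = 0.305), and Clk4 medians of 39.5 and 36.8 CPM and -0.09 (adjusted p = 0.173).

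Of the SR genes, Srsf4 rose and Srsf5 fell on MCD. Srsf4, which codes for the large SR protein SRp75, ranged from 34.5 to 61.6 CPM on control with a median of 41.5, and from 42.8 to 65.6 on MCD with a median of 56.2. Although the ranges overlapped, the MCD mean was higher at 5 of 6 times, and the log2 difference was 0.33 ± 0.05 (adjusted p = 1.8e-06). Srsf5 ranged from 147 to 281 CPM on control with a median of 219, and from 136 to 221 on MCD with a median of 176. Its mean was lower on MCD at 6 of 6 times, with a log2 difference of -0.32 ± 0.06 (adjusted p = 4.5e-05), which was -0.06 and did not pass with library totals. Both genes passed within either kind of library, Srsf4 at 0.33 and 0.29 and Srsf5 at -0.28 and -0.37 in the low and the high kind. Srsf1, the first SR protein described, was lower by a log2 difference of -0.15, and Srsf6 was higher by 0.13. The remaining 8 SR genes tested were not called.

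The hnRNP genes split into 4 that rose and 6 that fell. Hnrnpa1 and Hnrnpa2b1, close relatives that bind UAG motifs, moved apart. Hnrnpa1 ranged from 33.3 to 51.1 CPM on control (median 43.5) and from 37.3 to 71.5 on MCD (median 50.7), and Hnrnpa2b1 from 248 to 313 CPM on control (median 285) and from 213 to 277 on MCD (median 240). The means of Hnrnpa1 were higher and those of Hnrnpa2b1 lower on MCD at 6 of 6 times, with overlapping ranges. Log2 differences were 0.23 ± 0.05 (adjusted p = 3.7e-04) and -0.22 ± 0.04 (adjusted p = 6.2e-05), the second 0.04 with library totals. Hnrnph1, which like Hnrnpf binds runs of G, rose by 0.20 ± 0.04 (adjusted p = 1.2e-04) from a median of 88.6 CPM (78.8 to 97.6) to 103 (86.4 to 128), higher at 6 of 6 times.

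Hnrnpr, an RNA-binding protein studied in motor neurons, had a log2 difference of -0.18 ± 0.03 (adjusted p = 4.2e-05). Its control libraries ranged from 26.9 to 42.6 CPM (median 32.9) and its MCD libraries from 23.0 to 38.8 (median 29.3), with a lower MCD mean at 6 of 6 times. Hnrnpdl, a relative of the AU-rich element binder Hnrnpd, had -0.20 ± 0.05 (adjusted p = 8.1e-04), from a median of 60.8 CPM (49.8 to 75.2) on control to 51.3 (38.1 to 72.5) on MCD. Both stood above 0 with library totals, Hnrnpr at 0.07 and Hnrnpdl at 0.06. Hnrnpab and Hnrnpa0 were the other hnRNP genes called higher, and Hnrnpu, Hnrnph2 and Hnrnpc the others called lower. The calls of Hnrnpu, Celf1, Hnrnpc and Hnrnpa0 did not pass in the model that also held the kind, and that of Hnrnpa0 was lost without any 1 of 27 libraries, of Hnrnpc without any 1 of 12 and of Celf1 without any 1 of 7.

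Of the remaining families, Mbnl2, which sets adult brain exons, rose from 33.7 ± 6.55 CPM (19.9 to 44.6, median 35.0) to 40.5 ± 6.31 (32.0 to 52.1, median 39.8), with a log2 difference of 0.28 (adjusted p = 0.0059). Its diets overlapped, and within the high kind of library the difference of 0.29 did not pass (adjusted p = 0.134). Mbnl3 was also called higher, from a mean of 0.64 CPM to 1.01 CPM. U2af2, the large subunit that binds the polypyrimidine tract, was higher by 0.10, and Celf1, a binder of GU-rich RNA, lower by 0.09 on the log2 scale.

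**Figure D2:**
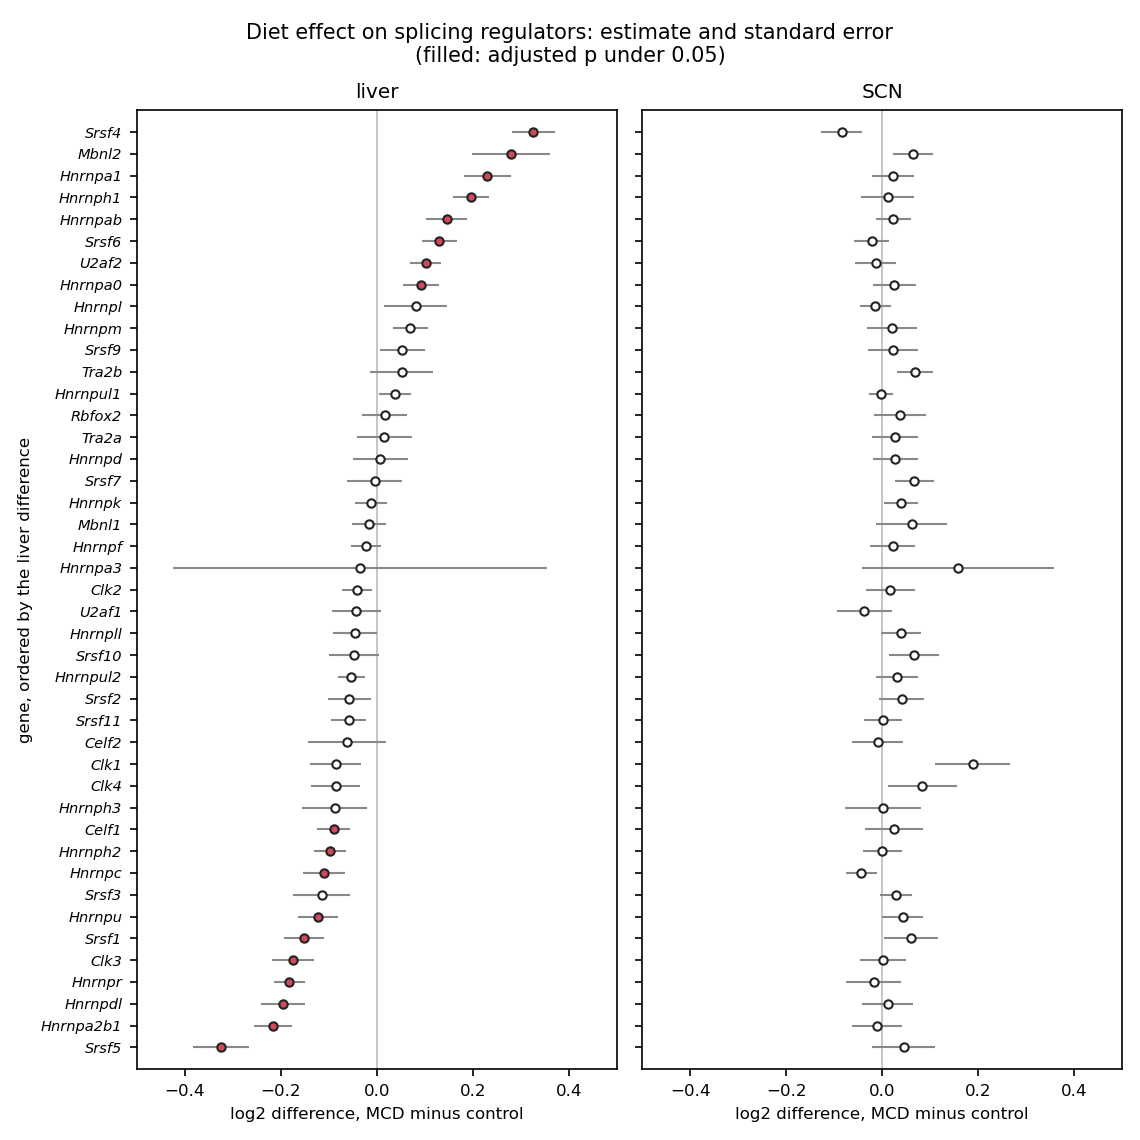
Log2 difference of MCD minus control (points) with its standard error (bars) for 43 splicing regulators of at least 1 CPM in liver on both diets, in liver (left) and the SCN (right), ordered by the liver value; filled points had an adjusted p under 0.05. Srsf4 is at the upper and Srsf5 at the lower end of the liver values, and no SCN point is filled.

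In the SCN no member was called for diet: 0 of 50, against 0.0635% of all 15759 genes (10 genes; 0.0381% higher and 0.0254% lower), by edgeR's quasi-likelihood test, and 0 as well by DESeq2 and limma. A single member, Clk1, had an unadjusted p under 0.05, where 4.73% of all genes did. Its libraries averaged 64.4 ± 12.4 CPM on control and 72.9 ± 15.4 on MCD (n = 18 each), a log2 difference of 0.19 ± 0.08 (p = 0.0228, adjusted p = 0.884). Clk2, Clk3 and Clk4 had log2 differences of 0.02 ± 0.05, 0.00 ± 0.05 and 0.08 ± 0.07.

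The difference of the diet effects, liver minus SCN, was tested over all 72 libraries. It was called for 12 of 48 members, 4 higher and 8 lower, where 34.7% of the shared genes were called (18.9% higher and 15.8% lower). Without replicate 1 the split was 3 members higher and 2 lower (1981 and 1610 of all genes). Without replicate 2 it was 2 and 2 (1616 and 1360), and with the kind of liver library as a term 6 and 6 (2584 and 2130). With library totals, which moved the median of all genes to 0.17, the split turned to 12 higher and 1 lower, and of the 8 members on the lower side Srsf5 alone still passed. Srsf4 stood at 0.41 ± 0.06 (adjusted p = 1.6e-06), Hnrnpa1 at 0.20, Hnrnph1 at 0.18 and Srsf6 at 0.15. On the lower side were Srsf5 at -0.37 ± 0.09, Srsf1 at -0.21, Hnrnpa2b1 and Hnrnpdl at -0.21, Clk3 at -0.18, Hnrnpu and Hnrnpr at -0.17, and Clk1 at -0.28 ± 0.10 (adjusted p = 0.0239). Clk1 was the 1 member of the 12 called in neither tissue on its own, with a negative value in liver and a positive one in the SCN. Its difference did not pass with library totals (-0.12) or without replicate 1 (-0.22) or replicate 2 (-0.26).

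Over the circadian day, 13 of 47 members in control liver passed a test of a 24 h cosine, against 17.8% of all genes. The count fell to 8 without any 1 of 5 control libraries (CT0 numbered 1, CT4 numbered 1 or 2, CT12 numbered 2, CT16 numbered 1). The share of all genes in those fits is not given here. The count was 1 of 46 within the low kind of library (4.87% of all genes) and 3 of 46 within the high kind (3.93%). Without replicate 1 it was 3 of 48 (3.9%), and without replicate 2 it was 2 of 47 (5.86%). A replicate term in place of sex, without the CT8 control columns that share a name, gave 5 of 48 (12%). The 13 were 6 hnRNP and 5 SR genes with Clk3 and Celf2. Ranges below are the fitted peak-to-trough differences on the log2 scale. Tra2a had the largest, 0.68 ± 0.11 (SE) with a peak at CT20.2 (adjusted p = 5.0e-04): its 3 libraries took 30.5, 32.6 and 30.6 CPM at CT20 and 17.8, 19.6 and 24.5 at CT12, without overlap. Celf2 (0.58, peak at CT12.4), Srsf5 (0.54, CT5.4), Srsf4 (0.49, CT11.3), Hnrnpdl (0.48, CT7.3), Hnrnpr (0.47, CT0.9), Hnrnpd (0.47, CT6.4) and Hnrnpl (0.45, CT4.8) followed. Of these, Hnrnpr had the lowest adjusted p, 4.1e-05, with 35.2, 36.2 and 42.6 CPM at CT0 and 27.7, 26.9 and 28.0 at CT12. Hnrnpl, at an adjusted p of 0.045, was lost without any 1 of 22 libraries.

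Clk3 was the CLK gene called in control liver, with a range of 0.29 ± 0.09, a peak at CT18.8 and an adjusted p of 0.048, which was lost without any 1 of 26 libraries. Clk1 had 0.26 ± 0.11 (adjusted p = 0.182), Clk4 0.14 and Clk2 0.07. Of the 6 hnRNP genes called, 5 peaked between CT0 and CT8 and 1 between CT16 and CT24, whereas 3 of the 5 SR genes peaked between CT16 and CT24. All 3611 genes called peaked in these windows at 35.3% and 30.2%, and the median range of the called members, 0.47, stood below that of all called genes, 0.67.

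On MCD 18 of 47 members were called rhythmic in liver, against 28.2% of all genes: 14 of 20 hnRNP genes, 3 of 12 SR genes, 1 of 3 MBNL genes and none of the CLK, CELF, RBFOX and U2AF genes. Within the low kind 12 of 46 were called (20.5% of all genes) and within the high kind 0 (0.274%). Of the hnRNP calls, that of Hnrnph3 was lost without any 1 of 24 libraries, of Hnrnpf without any 1 of 15, of Hnrnpa0 of 10 and of Hnrnpm of 6. Of the 14 hnRNP genes 10 peaked between CT0 and CT8 and 4 between CT16 and CT24, where 30.9% and 39.8% of all 5704 called genes did. Hnrnpl had a range of 1.42 ± 0.13 with a peak at CT3.3 (adjusted p = 1.3e-07), and its paralog Hnrnpll, known for silencing exons of the lymphocyte gene Ptprc, one of 1.27 ± 0.09 with a peak at CT4.7 (adjusted p = 2.4e-09). Hnrnpd (0.70, CT4.8), Tra2a (0.69, CT15.4), Hnrnpdl (0.64, CT4.1), Hnrnpr (0.58, CT0.3), Hnrnpa1 (0.56, CT5.2) and Hnrnpk, a binder of C-rich RNA (0.47, CT3.2), came next. The CLK genes had ranges of 0.13 to 0.18, with adjusted p from 0.144 for Clk2 to 0.597 for Clk4. Both diets shared 8 called members, which was 61.5% of those called on control and 44.4% of those on MCD (62.9% and 39.8% over all genes): Hnrnpc, Hnrnpd, Hnrnpdl, Hnrnpk, Hnrnpl, Hnrnpr, Srsf1 and Tra2a. Srsf1 was lost without any 1 of 13 libraries on control and of 12 on MCD.

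The rhythms of 5 members differed between diets in liver by a test of the difference itself, where 4.87% of all genes did. The count was 2 with library totals (3.75%), 13 by DESeq2 (9.96%), and 1 and 0 of 46 within the low and the high kind (0.0552% and 0% of all genes). It was 3 without the MCD library of CT16 numbered 2 and 8 without that of CT4 numbered 1, fits whose share of all genes is not given here. Hnrnpll had the largest difference, 1.24 ± 0.13 (adjusted p = 3.4e-05). On control its time means stayed between 27.8 and 30.0 CPM. On MCD its libraries took 40.6, 43.4 and 39.9 CPM at CT8 and 16.7, 18.3 and 17.5 at CT16, so that the diets separated on both sides of the control level. Hnrnpl differed by 1.01 ± 0.19 (adjusted p = 0.0070). Its control libraries took 98.7, 99.8 and 87.3 CPM at CT4 and 61.9, 74.1 and 69.2 at CT16, while on MCD they took 113, 142 and 149 CPM at CT4 and 50.5, 56.4 and 47.2 at CT16. Every MCD library was above every control library at CT4 and below at CT16.

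Tra2a differed by 0.81 ± 0.16 (adjusted p = 0.0125), with its peak at CT15.4 on MCD and at CT20.2 on control. On MCD it took 35.1, 32.4 and 36.02 CPM at CT16 and 22.1, 23.2 and 16.5 at CT0, and those times did not overlap. Srsf6, an SR protein, differed by 0.48 ± 0.10 (adjusted p = 0.0197): on MCD it took 127, 136 and 139 CPM at CT20 and 106, 89.7 and 92.4 at CT4, and on control its time means spanned 98.7 to 113 CPM. Hnrnpul1, a relative of Hnrnpu, differed by 0.38 ± 0.09 (adjusted p = 0.041), with 105, 101 and 102 CPM at CT0 and 77.9, 81.4 and 64.2 at CT12 on MCD and control means of 81.3 to 91.0 CPM. The call of Srsf6 was lost without the MCD library of CT16 numbered 2, and that of Hnrnpul1 without any 1 of 26 libraries. Of these 5 members Hnrnpll alone passed without all libraries of replicate number 1, 2 or 3, and the difference of Hnrnpl was then 1.24, 1.13 and 0.69.

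**Figure D3:**
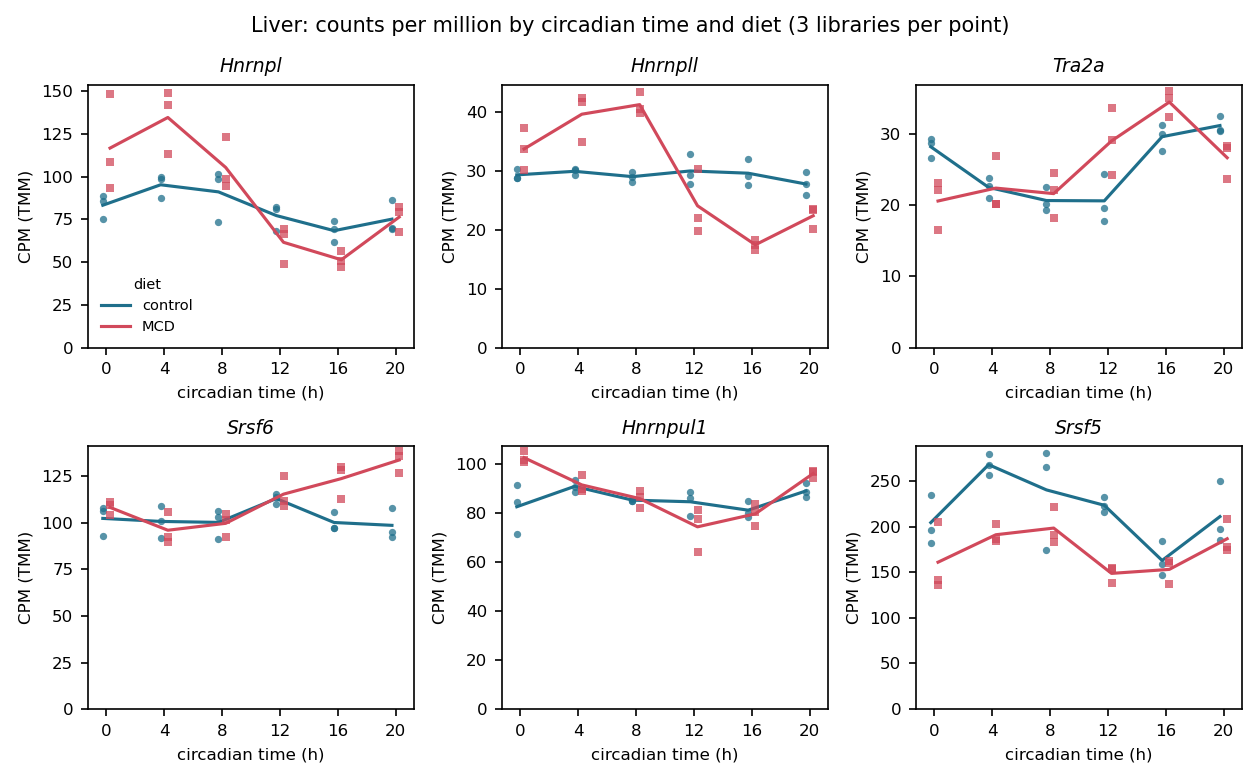
Level in liver (CPM, vertical) by circadian time (h, horizontal) for Hnrnpl, Hnrnpll, Tra2a, Srsf6, Hnrnpul1 and Srsf5, with points for the 3 libraries of each diet and time and lines through their means. Hnrnpl and Hnrnpll swing widely on MCD, with 47.2 to 56.4 CPM of Hnrnpl at CT16 against 113 to 149 at CT4, and Hnrnpll is near level on control.

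In the SCN 13 of 50 members passed the 24 h test on control (15.1% of all genes) and 13 on MCD (16.1%), 8 of them on both diets (61.5% of either; 65.4% and 61.2% over all genes): Celf3, Celf4, Hnrnpc, Hnrnpdl, Hnrnpm, Srsf5, Tra2a and Tra2b. No member's rhythm differed between diets (0 of 50, against 0.0127% of all genes, or 2 genes), and 4 members, Srsf5, Celf3, Hnrnpdl and Hnrnpul1, had an unadjusted p under 0.05 in that edgeR test, where 3.78% of all genes did; DESeq2 and limma called 0 as well. Celf3, a neuronal CELF protein, had the largest range, 0.84 ± 0.09 on control with a peak at CT8.0 (adjusted p = 2.4e-07) and 0.80 ± 0.09 on MCD with a peak at CT6.3 (adjusted p = 5.4e-07). It took 213, 183 and 177 CPM at CT8 and 111, 113 and 108 at CT20 on control, and 193, 198 and 207 CPM at CT8 and 125, 90.6 and 132 at CT16 on MCD. High and low times did not overlap on either diet.

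Hnrnpm, a binder of GU-rich RNA, ran nearly opposite to Celf3, with a range of 0.82 ± 0.11 and a peak at CT18.3 on control (adjusted p = 5.8e-06) and 0.74 ± 0.11 and CT18.0 on MCD (adjusted p = 2.7e-05). On control it took 191, 143 and 152 CPM at CT16 and 98.8, 99.2 and 97.02 at CT4. Srsf5 had ranges of 0.71 ± 0.13 on control (peak at CT5.5) and 0.75 ± 0.13 on MCD (CT1.4), with 237, 253 and 196 CPM at CT4 and 131, 125 and 107 at CT16 on control. Its MCD libraries at CT0 were spread, at 160, 188 and 318 CPM. Hnrnpdl had ranges of 0.66 and 0.80, with 178, 159 and 151 CPM at CT8 against 101, 123 and 87.7 at CT16 on control, and Tra2a had 0.60 and 0.51, with 122, 99.0 and 105 CPM at CT16 against 68.9, 63.7 and 74.7 at CT4. None of these high and low times overlapped.

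Celf2 (0.45), Srsf10, an SR protein that represses splicing when dephosphorylated (0.38), Hnrnpc, a binder of U tracts (0.38), and Tra2b (0.32) followed on control. On MCD the others with large ranges were Hnrnph3 (0.60), Clk4 (0.58), Hnrnpa2b1 (0.50) and Srsf9 (0.49). Of the 13 calls on control, Hnrnpu was lost without any 1 of 15 libraries, Celf4 of 9, Hnrnpab and Hnrnph2 of 7 and Srsf10 of 6, and on MCD Hnrnpl was lost without any 1 of 11 and Hnrnph3 of 5. Without 1 of the CT8 libraries 8 members were called on control, a fit whose share of all genes is not given here. Clk4 was the 1 CLK gene called in the SCN, with a range of 0.58 ± 0.15 and a peak at CT8.2 on MCD (adjusted p = 0.0166). It took 31.0, 34.9 and 49.4 CPM at CT4 and 25.4, 24.5 and 20.2 at CT20, and the call was lost without any 1 of 3 MCD libraries. On control Clk4 had 0.30 ± 0.15 (adjusted p = 0.314), and the difference between diets, 0.37 ± 0.21, did not pass. Clk1, Clk2 and Clk3 had ranges of 0.22, 0.05 and 0.24 on control and 0.35, 0.25 and 0.29 on MCD, none called.

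**Figure D4:**
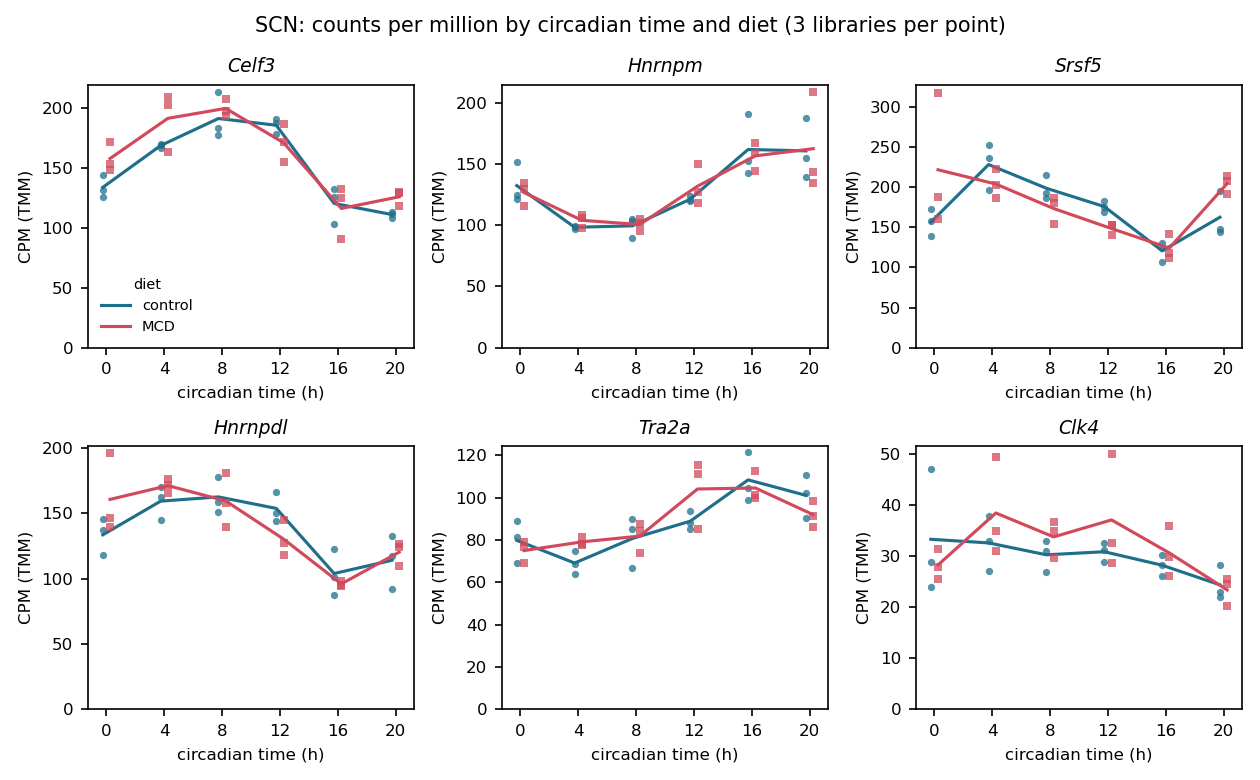
Level in the SCN (CPM, vertical) by circadian time (h, horizontal) for Celf3, Hnrnpm, Srsf5, Hnrnpdl, Tra2a and Clk4, with points for the 3 libraries of each diet and time and lines through their means. Celf3 is high at CT8 (177 to 213 CPM on control) and Hnrnpm is low at CT4 (97.02 to 99.2 CPM on control), while the MCD libraries of Srsf5 at CT0 are spread from 160 to 318 CPM.

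On control diet 6 members were called in both tissues, which was 46.2% of the 13 in liver and 50% of the 12 in the SCN that were tested in both tissues. Of all genes 618 were, 19.9% of those called in liver and 29.6% of those in the SCN on the same base. The 6 were Celf2, Hnrnpc, Hnrnpdl, Srsf5, Tra2a and Tra2b. Fitted peaks lay near each other for Srsf5 (CT5.4 in liver and CT5.5 in the SCN) and Hnrnpdl (CT7.3 and CT6.6), further apart for Hnrnpc (CT18.9 and CT20.5) and Tra2a (CT20.2 and CT16.6), and furthest for Celf2 (CT12.4 and CT18.0) and Tra2b (CT18.1 and CT12.6). In liver the call of Celf2 was lost without any 1 of 10 libraries and that of Tra2b without any 1 of 18. Of the 46 members tested in both tissues 16 (34.8%) were called in none of the 4 tests of rhythm, against 45.8% of all 14227 such genes, and Clk1, Clk2, both U2AF genes, Rbfox2 and Rbfox3 were among them.

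Exon usage was compared as the share of a gene's counts in each exon bin, a stretch between exon borders, with a test of whether the bins of a gene change unequally (diffSpliceDGE in edgeR, with the Simes method per gene). Diet changed 1 of 43 members tested in liver, against 3.79% of all genes. It was Srsf1, in a bin of 152 bases at chr11:88048675-88048826 that M21 places in a retained-intron transcript only. The bin took 0.431% to 1.14% of the gene's counts on control (median 0.629%) and 0.160% to 0.964% on MCD (median 0.436%), with overlap, and a log2 change relative to the gene of -0.69 (adjusted p = 0.014). An F test per gene over all bins called 8 members where 6.00% of genes were called. The Srsf1 call was lost without any 1 replicate number.

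Between the subjective night (CT12 to CT20) and day (CT0 to CT8) 4 of 43 members changed exon usage in liver, against 1.19% of all genes: Hnrnpl, Clk3, Tra2a and Hnrnpm. In Hnrnpl the decay exon printed above took 0.475% to 1.19% of the gene's counts by day (median 0.754%) and 0.809% to 2.38% by night (median 1.12%), a log2 change of 0.74 (adjusted p = 2.5e-04). Its share was highest in the MCD libraries of CT16, at 2.20%, 2.38% and 2.27%, the time at which the gene's level was lowest. At CT4 on MCD, where the level was highest, the shares were 0.713%, 0.567% and 0.607%, and all 16 control libraries lay between 0.621% and 1.26%. The exon itself had 76, 87 and 85 counts in those libraries at CT16 and 84, 89 and 90 at CT4. These raw counts were alike while those of the whole gene were not, but they are not scaled for depth. Bin totals of the liver libraries ran from 44.9 M to 82.6 M. On control the share was 0.848% ± 0.20 by day (SD, n = 7) and 1.02% ± 0.16 by night (n = 9), and on MCD 0.753% ± 0.23 and 1.68% ± 0.59 (n = 9 each); the difference between diets was not tested. A retained intron of Hnrnpl, 1584 bases at chr7:28815353-28816936, moved likewise, from 4.34% ± 1.13 by day (n = 16) to 6.52% ± 1.36 by night (n = 18), a log2 change of 0.61 (adjusted p = 1.2e-04). By diet it took 5.30% ± 0.88 by day and 5.95% ± 0.51 by night on control, and 3.59% ± 0.61 and 7.09% ± 1.72 on MCD.

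The decay exon of Tra2a moved the other way. By day it took 4.38% to 8.95% of the gene's counts (median 5.88%) and by night 0.590% to 5.66% (median 4.03%), a log2 change of -0.66 (adjusted p = 0.0030). On MCD at CT16, when the gene's level was highest, the shares were 2.78%, 3.19% and 3.38%, and at CT0, when it was lowest, 5.85%, 5.56% and 8.95%. On control the share was 4.61% ± 0.57 (SD, n = 3) at CT12, when the level was lowest, and 4.10% ± 0.56 at CT20, when it was highest, with its highest mean at CT4 (5.94% ± 1.00). The lowest share, 0.590%, belonged to 1 MCD library of CT12 with 12 counts in the exon. In Clk3 a retained intron of 2441 bases at chr9:57761868-57764308 took 1.86% to 4.81% by day (median 2.76%) and 2.79% to 6.13% by night (median 4.77%), a log2 change of 0.61 (adjusted p = 1.5e-04). At CT12 it was 6.13%, 5.18% and 5.98% on control and 4.12%, 4.58% and 5.42% on MCD, and at CT16 on MCD 4.84%, 4.78% and 4.76%. The bin of Hnrnpm was 8 bases long and held 0 to 26 counts. The F test per gene called 10 members where 2.37% of genes were called. Without replicate 2 no member passed per gene by the Simes method, although the Clk3 bin still did (adjusted p = 0.041). By day 8 liver libraries with bins were of the low kind and 8 of the high kind, and by night 12 and 6.

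In the SCN 3 of 49 members changed exon usage between night and day, against 0.0982% of all genes. In Srsf5 a retained intron of 590 bases at chr12:80948505-80949094 took 0.502% to 2.29% of the gene's counts by day (median 1.46%) and 0.968% to 5.24% by night (median 2.42%), a log2 change of 0.90 (adjusted p = 1.1e-05). The same intron took 7.14% ± 0.91 by day and 7.24% ± 1.06 by night in liver. In Celf3 a retained intron of 853 bases at chr3:94489608-94490460 took 0.741% to 3.94% by day (median 1.25%) and 1.18% to 5.04% by night (median 2.56%), a log2 change of 0.89 (adjusted p = 9.3e-06), which did not pass without replicate 1 (adjusted p = 0.119). On MCD its time means were 0.946% to 1.31% by day and 2.57% to 4.22% by night. On control they overlapped, at 1.33% to 2.37% by day and 2.04% to 3.27% by night. Both genes had their lowest mean level in the SCN at CT16 or CT20 on each diet. Hnrnpk was the third, in a bin of 16 bases at chr13:58393853-58393868, but its night change of -1.06 on the log2 scale turned to 0.082 without replicate 2. It was also the 1 of 49 called for diet (0.0458% of all genes), a call lost without replicate 1. The F test per gene called 0 of the 49 for diet, against 0.0196% of all genes.

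**Figure D5:**
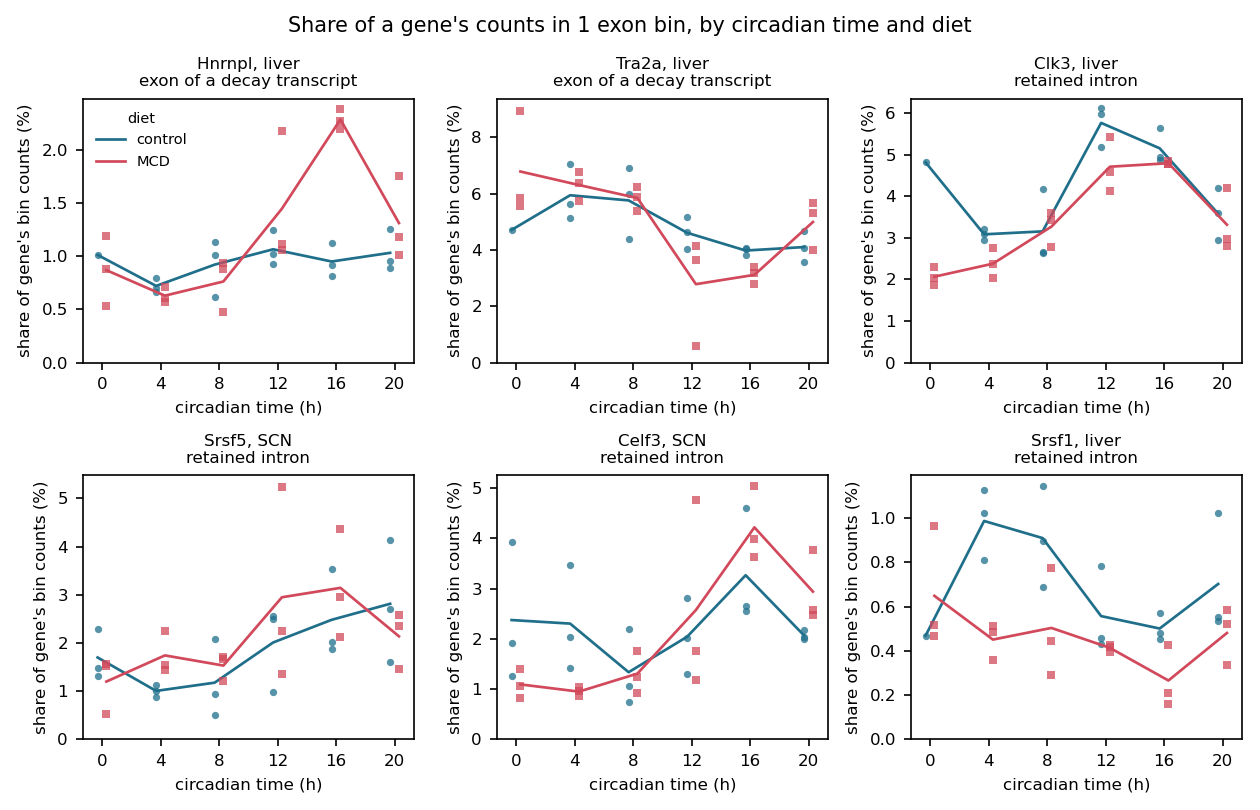
Share of a gene's counts in 1 exon bin (%, vertical) by circadian time (h, horizontal) for the decay exons of Hnrnpl and Tra2a and retained introns of Clk3 and Srsf1 in liver and of Srsf5 and Celf3 in the SCN, with points for libraries and lines through the means of each diet. The Hnrnpl exon reaches 2.20% to 2.38% at CT16 on MCD, while its control libraries stay at or below 1.26%.

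Other genes of the splicing pathway were read from lists. Counts are to be read against the 46.6% of all genes called for diet in liver (25.3% higher and 21.2% lower). Of 6 SR protein kinases outside the CLK family 4 were called there, 2 higher and 2 lower, among them Srpk2 (log2 difference -0.35), Dyrk1a (0.21) and Srpk1 (0.19). Of 38 further regulators of alternative splicing 15 were called, 5 higher and 10 lower, led by Tial1 (-0.31), Pnisr (-0.37) and Pcbp1 (0.34). Of 25 core spliceosome genes 12 were called, 7 higher and 5 lower, and of 14 genes of nonsense-mediated decay 9, 7 higher and 2 lower, with Upf3a at 0.27, Smg5 at 0.29 and Upf3b at -0.34. List medians were 0.10, -0.04, -0.03 and 0.12 against 0.02 for all genes. Of 8 heat shock and cold-inducible genes 4 were higher and 1 lower, with Hspa1a at 1.23 and Hspa1b at 1.07. In the SCN none of these lists had a gene called for diet, where 0.0635% of all genes were.

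For rhythm in liver the heat shock list had 7 of 8 genes called on either diet and the core clock list 13 of 13, where 17.8% of all genes were called on control, 28.2% on MCD and 4.87% for the difference. The further splicing regulators had 12 of 38 called on control and 18 on MCD, with 9 that differed between diets, led by Ewsr1, Ptbp1 and Son. The core spliceosome had 4 of 25 on control, 11 on MCD and 2 that differed, and nonsense-mediated decay 2 of 14, 6 and 0. In the SCN, where 15.1% and 16.1% of all genes were called on control and MCD, the heat shock list had 7 and 8 of 8, the further splicing regulators 12 and 15 of 38, the core spliceosome 3 and 1 of 25 and nonsense-mediated decay 1 and 2 of 14.

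Some members share exonic sequence with a gene on the other strand in M21, among them Clk3, Hnrnpl, Srsf1, Srsf4, Celf2, Celf3, Hnrnpd, Hnrnpk, Hnrnpr, Hnrnpu and Mbnl2. No source used here says whether the counting used strand, and their levels are uncertain to that extent. Hnrnpm (with March2), Hnrnpa3 (Gm24574), Clk4 (Gm25082) and Hnrnpul2 (AC129217.1) share exonic sequence with a gene on the same strand, which strand cannot resolve.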

How the data were processed

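The members and gene lists were chosen with earlier results of these data known. The authors deposited raw counts per gene for each tissue and raw counts per exon bin for each library (DEXSeq-style counts, per the file headers). The submitters' processing notes name Trimmomatic, HISAT2, StringTie and DESeq2 and the build GRCm39, without versions. Whether counting used strand is not given in the sources used here.

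Gene counts were fitted per tissue with edgeR 4.0.16 (TMM scaling, robust quasi-likelihood, filterByExpr with a minimum count of 10, 12 groups of diet and time, sex as a covariate) in R 4.3.3, with Benjamini-Hochberg adjustment over all genes tested and a threshold of 0.05. Diet was tested as the mean over 6 times, rhythm as the 24 h cosine and sine components, and tissues in a joint fit of 72 libraries. Exon bins were tested with diffSpliceDGE. Bins were placed by their order on GENCODE M21 (GRCm38) where the number of bins matched, for 47 of 51 members, so that their positions are inferred. Bin files of 2 control livers of CT0 were incomplete and not used, which left 34 liver and 36 SCN files. Both gene tables have 2 control CT8 columns that carry the same name and were given the group only. Total gene counts per library (23.3 M to 86.7 M) set the precision.

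Alternatives were DESeq2 1.42.0, limma 3.58.1, other scalings and filters, a term for the kind of liver library, a replicate block and left-out libraries; tests within each kind were added after seeing the data. Simulated data were used to check the diet test and the control rhythm test in each tissue. The diet effect of liver minus SCN and exon usage in liver were checked likewise. Rhythm on MCD, the rhythm difference, the tissue levels and exon usage in the SCN were not checked so. All members were counted. Full values are given for the 4 Clk genes and for up to 8 called members of at least 1 CPM. Those members had the largest log2 change or range, except in the tissue comparison. There Hnrnpa3, Hnrnph3 and Hnrnpd had larger differences than Mbnl1 but are given without levels. Values are also given for the strongest bin of up to 6 called members and for at most 3 called genes of each other list.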

Additional observations from a re-analysis of the deposited data

Results flagged for a closer look

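The diet effect differed between liver and SCN, by a test of the difference itself (liver minus SCN, log2), for Srsf4 (0.41), Hnrnpa1 (0.20), Hnrnph1 (0.18), Srsf6 (0.15), Hnrnpu (-0.17), Hnrnpr (-0.17), Clk3 (-0.18), Hnrnpa2b1 (-0.21), Hnrnpdl (-0.21), Srsf1 (-0.21), Clk1 (-0.28) and Srsf5 (-0.37). The rhythm in liver differed between diets, again by a test of the difference (fitted range of the difference, log2), for Hnrnpll (1.24), Hnrnpl (1.01), Tra2a (0.81), Srsf6 (0.48) and Hnrnpul1 (0.38).

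In 5 of 28 groups of exon-bin shares (7 bins by diet and by day or night) 1 library lay far from the others. The bins were those called for night usage in these same libraries, and many shares of the Hnrnpm bin were 0. No chance rate is therefore set beside this count. The retained intron of Celf3 took 4.60% in 1 control night library of the SCN. The decay exon of Tra2a took 8.95% in 1 MCD day library of liver. The bin of 8 bases in Hnrnpm took 0.0976% in a control night library, 0.321% in an MCD day library and 0.304% in an MCD night library of liver, on counts of 0 to 26.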

How the results depend on the processing

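Directions of the diet effect in liver depend on scaling. With library totals 36 members were called instead of 19, all higher, and these values changed sign: Hnrnpa2b1 0.042, Hnrnpdl 0.059, Hnrnpr 0.073, Clk3 0.081, Srsf1 0.10, Hnrnpu 0.14, Hnrnpc 0.15, Hnrnph2 0.16, Celf1 0.16, Clk4 0.17, Clk1 0.17 and Clk2 0.22. So did, for liver minus SCN, the diet effect of Clk2 (0.10) and the control levels of Clk3 (-0.18), U2af1 (-0.36), Hnrnpul1 (-0.41), Srsf9 (-0.42), Hnrnpab (-0.45), Hnrnpm (-0.48), Hnrnpul2 (-0.51) and Srsf4 (-0.583), and the called rhythm differences fell from 5 to 2. Clk3 in the SCN, which was near 0 for diet, changed sign under DESeq2 (-0.000543), its size factors in edgeR (-0.000602), library totals (-0.00236) and limma (-0.00169), and ranged from -0.029 to 0.037 over left-out libraries, as did Clk2 from -0.014 to 0.038. DESeq2 called 13 rhythm differences. The F test per gene called 8 and 10 members in liver for diet and night, and 0 for diet in the SCN. Within the low and the high kind of liver library 9 and 6 were called for diet (Clk1 at 0.020 in the high kind), 1 and 3 for rhythm on control, 1 and 0 for its difference, and 2 and 1 for night usage; the high kind gave 0 for rhythm on MCD and the low kind 2 for exon usage by diet, which was 3 with the kind as a term and 2 without the CT8 control numbered 1. Fewer libraries entered the fits within 1 kind and the fit without the CT8 control. Otherwise the cause was not tested.

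Counts over left-out replicate numbers (and, within 1 tissue, over each left-out library for the gene tests) ranged from 11 to 20 for diet in liver, 2 to 14 and 10 to 21 for rhythm in liver on control and MCD, 1 to 8 for its difference, 4 to 16 and 6 to 15 for rhythm in the SCN, 4 to 8 for the diet effect of liver minus SCN, 0 to 1 for exon usage by diet in either tissue and 0 to 4 for night usage in liver. Shares of all genes fell as well without all libraries numbered 1, 2 or 3. In liver they were 36.4%, 33.7% and 38.8% for diet, and 3.9%, 5.86% and 14.3% for rhythm on control. For rhythm on MCD they were 15.4%, 13.4% and 18%, and for the rhythm difference 0.0984%, 0.0245% and 2.66%. Rhythm in control liver fell to 8 members without any 1 of 5 control libraries. The rhythm difference fell to 3 without the MCD library of CT16 numbered 2 and rose to 8 without that of CT4 numbered 1. Rhythm in the control SCN fell to 8 without 1 of the CT8 libraries. Shares of all genes in these single-library fits are not given here. The bin of Hnrnpk by night in the SCN ranged from -1.81 to 0.082.

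Deviations of same-numbered libraries of both diets correlated at -0.21 to 0.29 over 16 pairs in liver and at -0.17 to 0.25 in the SCN. In each tissue 7 of 16 were nearest their own number. With so few libraries per group this does not settle whether the numbers pair the samples. The female of each group always had the same replicate number, so a replicate block in place of the sex term also held sex. Leaving that number out left males only. For the gene tests the block fit left out the CT8 control columns that share a name. It gave 17 members for diet in liver (43.9% of all genes). For rhythm in liver it gave 5 and 19 on control and MCD (12% and 28%) and 4 for the difference (3.05%). In the SCN it gave 7 and 13 for rhythm. Exon usage by diet in liver had 2 with a replicate block. Depth limits low values, since called bins held as few as 0 counts in a library.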

Other observations

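Hnrnpa3, a relative of Hnrnpa1, was the 1 member whose libraries fell into separate ranges, a pattern singled out after its values were seen. In liver, by gene counts, 27 libraries took 6.24 to 13.2 CPM (here of the plain library total, without TMM) and the other 9 took 44.7 to 62.1 CPM, a gap of 3.40-fold with nothing between. Control and MCD libraries stood in both ranges (14 and 13 in the lower, 4 and 5 in the upper), and so did both kinds of library. In the SCN 3 libraries took 16.9 to 25.3 CPM and 33 took 119 to 172 CPM. The exon-bin files did not show the split in liver: the summed bin counts of Hnrnpa3 were 24.3 ± 3.98 CPM (SD, n = 25) in libraries of the lower range and 22.8 ± 2.14 (n = 7) in those of the upper range, without the columns of control CT8 that share a name. In the SCN they were 36.9 ± 5.12 (n = 3) and 50.1 ± 7.68 (n = 31). No other member of at least 1 CPM had a gap over 1.21-fold with 3 or more libraries on either side.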
